A study of Mus musculus with 122 samples.

Results

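Ctcf and Ctcfl, the gene pair that encodes the proteins under study, were followed through the deposited data by their rows in the expression table, 2 of the 52459 genes it lists, and by the ChIP-seq peaks at both loci. The series asked how CTCF and CTCFL act alone and together in mouse embryonic stem cells, by removing CTCF with auxin and inducing a transgene with doxycycline. Expression came from 38 RNA-seq libraries of 4 transgenic lines, and binding from 32 FLAG ChIP-seq libraries of 6 lines and 16 RAD21 ChIP-seq libraries of 4 lines. All lines derive from E14Tg2a cells (129/Ola), by the growth protocol grown without feeders in serum, leukemia inhibitory factor and the inhibitors CHIR99021 and PD0325901. Every group, the untreated controls included, carried CTCF fused to an auxin-inducible degron (CTCF-AID) on the endogenous alleles, the auxin receptor Tir1 at Rosa26, and a transgene with an N-terminal FLAG tag and C-terminal mRuby2 at the Tigre locus. The transgene encoded CTCF, CTCFL, or a chimera named for the origin of its N terminus, zinc fingers and C terminus, in that order, where C stands for CTCF and L for CTCFL (LCL, CLC, CLL and LLC). Cells were untreated (U), or received 500 µM indole-3-acetic acid (I), doxycycline at 1 µg/ml (D), or both (ID).

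Treatment lasted 24 h by the sample labels of RNA-seq, of RAD21 and of most FLAG libraries. It lasted 48 h by those of the CLL and LLC transgenes and of cells that were also treated with RNase or mock treated. The treatment protocol gives 2 days instead, and which holds was not settled. The lines were clones picked after nucleofection, and the number of clones behind each line is not given in the sources used here. The labels do not say that replicates came from separate cultures, so p-values measure only the spread between these samples, which may be technical.

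CTCF is an essential zinc finger protein of nearly all cell types that binds a long DNA motif, holds extruding cohesin in place and so anchors chromatin loops and domain borders. CTCFL, also called BORIS, is its paralog with a closely similar zinc finger array and different ends, and it is normally made in male germ cells and reactivated in some tumors. The degron acts on the protein, so the level of Ctcf mRNA is no measure of how much CTCF was removed. The expression table gives 1 row per gene, and reads of a transgene that were counted in the row of the matching gene cannot be told apart from those of the chromosomal gene. The authors report RNA-seq peaks over the exons of the domains that each transgene encodes. Whether the row in the table takes up the reads of every transgene is not given in the sources used here.

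On GRCm38, Ctcf (ENSMUSG00000005698) lies on the plus strand of chromosome 8 from 105636568 to 105682922, and its main transcript has 12 exons. Ctcfl (ENSMUSG00000070495) lies on the minus strand of chromosome 2 from 173093609 to 173119525, with 11 exons. A FLAG region was placed at a gene when it overlapped the gene with 10 kb on either side and was listed as a peak in both replicates of a group. By this rule Ctcf had 3 FLAG regions and Ctcfl had 6 over the 16 groups. At Ctcf they lay over the promoter (chr8:105635914-105637475), in an intron (chr8:105660917-105661875) and beyond the 3′ end at the start of the neighbor Carmil2 (chr8:105684941-105686698). At Ctcfl they lay over the promoter and first exons (chr2:173118711-173120335), over a coding exon and intron 5.6 kb inside the gene (chr2:173113354-173114561), over a coding exon and intron 12 kb inside (chr2:173106937-173108446), in an intron 22 kb inside (chr2:173096515-173098567) and downstream, 29.9 kb from the start site (chr2:173089387-173090889). The last region, also downstream (chr2:173088748-173089030), was listed in LCL ID alone.

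The genome under the summits of 5 of these regions is printed because the regions differ both in how well they match the CTCF motif and in which transgene bound them. Each line gives the GRCm38 sequence 5′ to 3′ on the strand of the motif match, and capitals mark the best match to the 14 positions of the core of the CTCF motif, searched on both strands within 100 bases of the median summit. In the intron 22 kb inside Ctcfl, capitals mark all 4 matches. Names are those of the whole regions, and the stretch printed for the region at 12 kb lies in an intron of the main transcript.
Ctcfl promoter, chr2:173119737-173119796, plus strand: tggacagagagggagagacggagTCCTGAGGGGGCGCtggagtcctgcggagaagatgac
Ctcfl exon and intron at 12 kb, chr2:173107551-173107610, plus strand: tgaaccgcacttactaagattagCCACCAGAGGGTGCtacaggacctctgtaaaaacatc
Ctcfl intron at 22 kb, chr2:173097446-173097571, minus strand: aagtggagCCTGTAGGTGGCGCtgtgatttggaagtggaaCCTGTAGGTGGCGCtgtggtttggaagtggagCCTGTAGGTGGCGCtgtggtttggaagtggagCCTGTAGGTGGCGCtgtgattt
Ctcfl downstream, chr2:173089633-173089692, minus strand: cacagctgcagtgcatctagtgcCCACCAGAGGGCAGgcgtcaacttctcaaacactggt
Ctcf promoter, chr8:105636736-105636795, plus strand: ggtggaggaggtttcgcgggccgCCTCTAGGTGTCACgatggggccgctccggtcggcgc

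The downstream region matched 14 of the 14 positions, and the regions at 12 kb and 22 kb matched 13. At 22 kb the same match stood 4 times in a row with starts 32 bases apart, on the strand of the gene. The Ctcf promoter matched 12 positions, the Ctcfl promoter 10 and the Ctcfl region at 5.6 kb 9. Of all windows of 201 bases under FLAG regions, 48.2% in CTCF ID and 32.2% in CTCFL D held a match of 13 or more, against 0.802% and 0.731% of windows moved by 2000 bases. A match of 10 or more was held by 96.8% and 91.5% of the regions and by 79.6% and 80.7% of the moved windows, so that a match of this grade is what most windows hold. The median summits lay close to the matches at 12 kb, downstream and at 22 kb, with the nearest match 2, 2 and 6 bases away. At the Ctcf promoter it was 86 bases away. The summits of single libraries ranged over 290, 75 and 668 bases at 12 kb, downstream and at 22 kb, and over 288 at the Ctcf promoter. A match is a description of letters and not of a bound site.

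In the RNA-seq libraries, between 6847072 and 49716771 reads were counted on genes, and CTCFL D replicate 3 had the fewest. All 10 markers of pluripotent cells (Pou5f1, Sox2, Nanog and others) had a mean normalized count of at least 10 in every line, and their summed level ranged from 97772 to 301128 over the libraries. Markers of differentiated lineages summed to between 786 and 4026, and 9 of 10 germ cell markers reached a mean of 10 in each line, with 1 at 0 throughout in LCL and in CLC. Of the pluripotent markers, 10 of 10 were lower in CTCFL ID than in U and 7 of 10 in CTCF ID, with none higher in either, in contrasts where 45.3% and 40% of all genes tested changed, and their part in the results below was not tested.

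The induced gene was looked at first, as a check of the labels. In the CTCFL line, the normalized counts of Ctcfl (reads divided by the library's size factor) were 193, 225 and 206 in U and 221, 203 and 177 in I, and they rose to 7764, 9398 and 7569.5 in D and to 5572 and 5455 in ID. In the CTCF line, Ctcf had 4712 and 4691 in U and 4622, 4371 and 4231 in I, against 3845, 3849.9 and 3549.7 in the libraries labelled D and 3910, 4137 and 4142 in those labelled ID. The row of Ctcf was therefore lower, not higher, in the libraries labelled D of the line that carries a CTCF transgene, and no library of D or ID reached the lowest library of I or U. FLAG ChIP-seq of the same line gave peaks after D and ID, as shown for both loci below. The authors report, from RNA-seq and ChIP-seq, that transgenic CTCF and CTCFL were expressed and bound only after doxycycline. In the CTCF line the row of Ctcf showed no such rise. Whether the transgene of this line is counted in the row of Ctcf was not tested. The RNA row thus does not check the label of the CTCF line, whose D and ID libraries are called the libraries labelled D and ID.

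**Figure D1:**
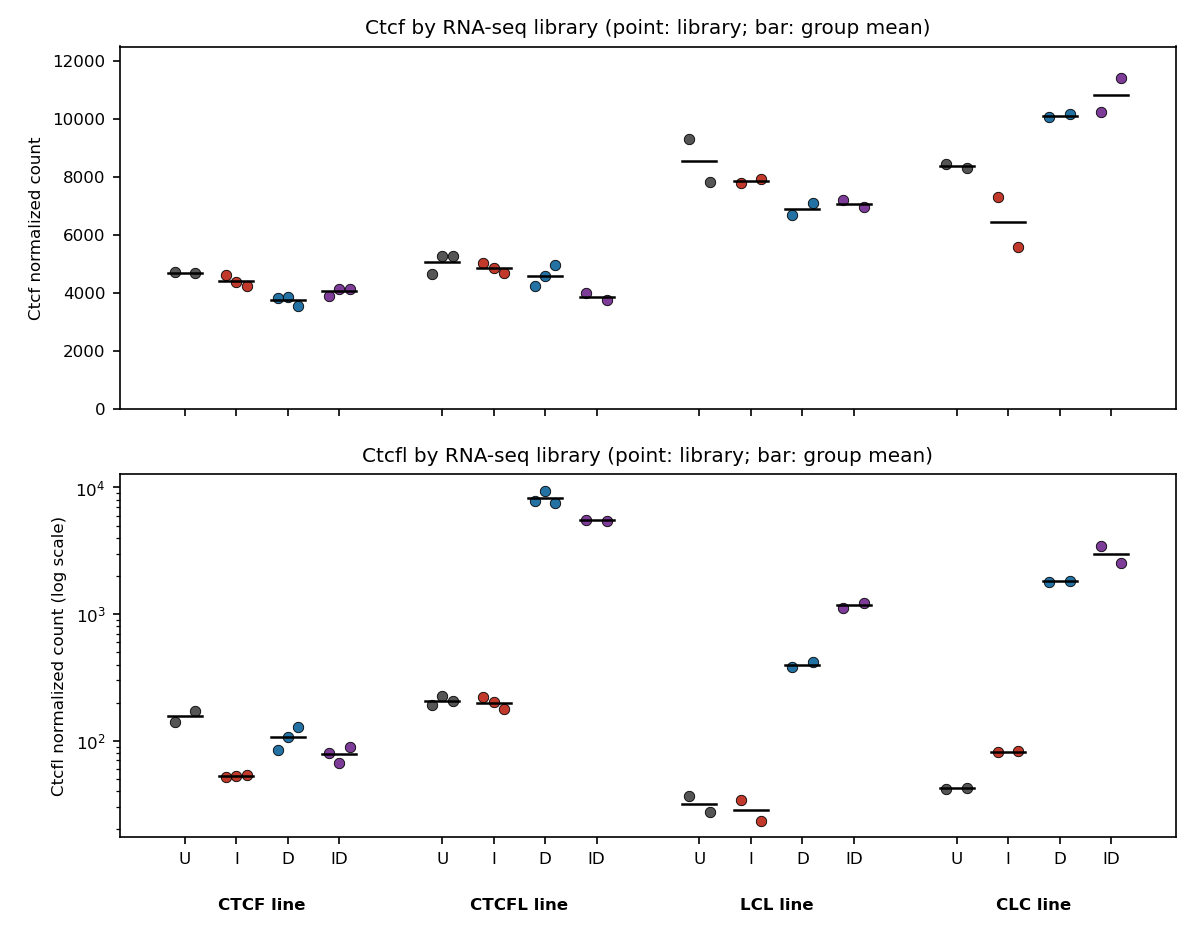
Normalized counts of Ctcf (top, linear axis) and Ctcfl (bottom, log axis) in each of 38 RNA-seq libraries, by line and condition, with a point for each library and a bar for the group mean. Ctcfl with doxycycline stands above its own U and I libraries in the CTCFL, LCL and CLC lines, and Ctcf stands higher in the LCL and CLC lines than in the CTCF and CTCFL lines in every condition.

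Within the lines, Ctcf changed little. Of 16 contrasts (I, D and ID against U and ID against I in 4 lines), 3 were lower and 1 was higher at an adjusted p under 0.01, and 12 did not pass. In the CTCFL line Ctcf had 4644, 5270.0 and 5278 in U, 5020.4, 4848 and 4695 in I, 4251, 4573 and 4959 in D, and 3991 and 3767 in ID. Both ID libraries lay below all 9 others, and Ctcf fell by 0.38 on the log2 scale against U (standard error 0.08, adjusted p = 3.31e-04 from limma) and by 0.32 against I (standard error 0.08, adjusted p = 0.00246), as 45.3% and 29.7% of 16840 genes tested also changed. Without CTCFL ID replicate 2 these values were -0.34 (adjusted p = 0.0113) and -0.28 (adjusted p = 0.0458), and without replicate 1 the second was -0.37 (adjusted p = 0.0117). In I and D of this line the differences from U were -0.06 and -0.14 (adjusted p = 0.543 and 0.131), where 30.3% and 24.9% of genes changed.

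In the CTCF line, Ctcf fell by 0.33 in the libraries labelled D (standard error 0.07, adjusted p = 0.00872), where 4.70% of 16705 genes changed. That call was lost in 10 of 11 fits with a library left out, with the highest adjusted p of 0.0802 without CTCF U replicate 2. The differences in I, in the libraries labelled ID and between ID and I were -0.09, -0.21 and -0.12 (adjusted p = 0.298, 0.0197 and 0.150), and 30.9%, 40% and 25.5% of genes changed in these contrasts.

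In the LCL line, whose transgene joins the zinc fingers of CTCF to the ends of CTCFL, Ctcf had 9309 and 7829 in U, 7792 and 7942 in I, 6705 and 7102 in D, and 7194 and 6964 in ID. The D and ID libraries lay below those of U and I, yet D and ID against U, at -0.31 and -0.27, did not pass (standard error 0.09 in each, adjusted p = 0.0211 and 0.0186), in contrasts where 11.3% and 37.9% of 15274 genes did. Without LCL U replicate 2, the lower of the untreated pair, they were -0.43 (adjusted p = 0.00332) and -0.40 (adjusted p = 0.00225). I against U and ID against I gave -0.12 and -0.15 (adjusted p = 0.325 and 0.185), where 28.4% and 33.1% of genes changed.

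The CLC line, whose transgene joins the ends of CTCF to the zinc fingers of CTCFL, was the only line of the 4 in which the row of Ctcf was highest with doxycycline. It had 8460.3 and 8319 in U, 7314 and 5586 in I, 10079.6 and 10162 in D, and 10258 and 11401 in ID, so that the D and ID libraries lay above those of U and I. Against I, ID was higher by 0.76 (standard error 0.12, adjusted p = 0.00586), a contrast in which 5.49% of 15337 genes changed. This call was lost without any 1 of the U, D or ID libraries, with adjusted p between 0.0190 and 0.0450. D and ID against U gave 0.27 and 0.37 (adjusted p = 0.184 and 0.0512), where 1.62% and 16.7% of genes changed. I against U gave -0.39 (adjusted p = 0.0312, with 27.2% of genes changed), and -0.59 (adjusted p = 5.36e-04) without CLC I replicate 1, since the I libraries differed from each other by more than any other pair of this line.

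**Figure D2:**
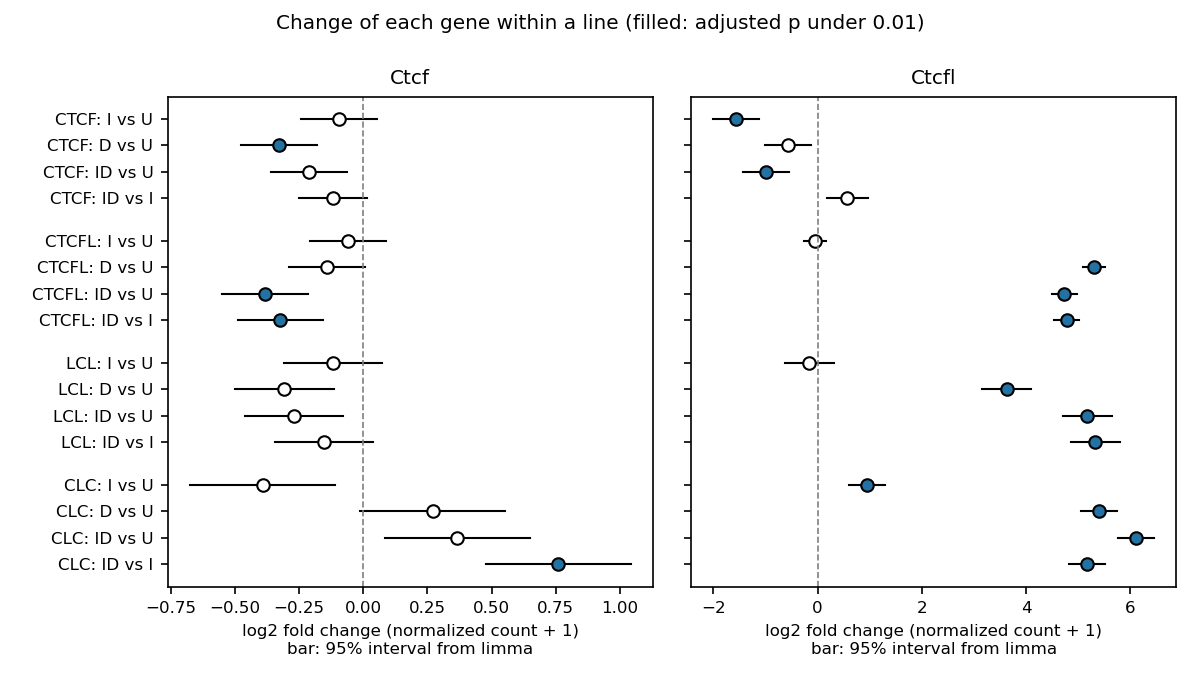
Log2 fold changes of Ctcf (left) and Ctcfl (right) for 4 contrasts in each of 4 lines, on separate x axes, with 95% intervals from limma and filled points at an adjusted p under 0.01. All contrasts of Ctcf lie between -0.39 and 0.76, while the contrasts of Ctcfl with doxycycline in the CTCFL, LCL and CLC lines lie between 3.62 and 6.10.

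Ctcfl passed the test in 12 of its 16 contrasts, 10 times higher and 2 times lower. Over these 16 contrasts, 1.62% to 45.3% of all genes tested passed. Apart from I in CLC, the higher calls were contrasts with doxycycline. They covered D and ID in each of the lines whose transgene holds coding sequence of Ctcfl. In the LCL line its normalized counts were 36.5 and 27.2 in U and 33.8 and 23.5 in I, against 384 and 416 in D and 1119.6 and 1225 in ID. In the CLC line they were 41.4 and 42.7 in U and 81.4 and 82.4 in I, against 1791 and 1829 in D and 3441 and 2544 in ID. In both lines each ID library lay above each D library, while in the CTCFL line each ID library lay below each D library.

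The mean of Ctcfl in D was 39.7 times that in U in the CTCFL line, 12.6 times in LCL and 43.1 times in CLC, and that in ID was 27.5, 40.95 and 36.5 times that in I. On the log2 scale the change from U to D was 3.62 in LCL (standard error 0.22, adjusted p = 4.12e-09) and 5.395 in CLC (standard error 0.15, adjusted p = 1.90e-06). The change from I to ID was 4.78 in CTCFL, 5.33 in LCL and 5.16 in CLC (standard errors 0.12, 0.22 and 0.15, adjusted p at most 2.79e-06).

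Whether these changes differed between lines was tested in 1 fit over all 38 libraries. By the authors' constructs, the CTCFL transgene holds the whole coding sequence of Ctcfl, and those of LCL and CLC hold different parts of it. The part of this in the differences between lines was not tested. The authors report comparable levels of these transgenic proteins by western blot and flow cytometry. The change from U to D differed by 1.68 between CTCFL and LCL (CTCFL minus LCL, standard error 0.24, adjusted p = 4.29e-06) and by -1.77 between LCL and CLC (LCL minus CLC, standard error 0.26, adjusted p = 2.37e-04), so that it was smallest of these 3 lines in LCL. CTCFL and CLC differed by -0.10 (95% interval -0.59 to 0.39, adjusted p = 0.813). The line of the CTCF transgene differed from CTCFL, LCL and CLC by -5.86, -4.19 and -5.96. Its transgene holds no Ctcfl sequence, so these differences were built into the constructs. Of all genes, 15.0% differed in the first of these contrasts, 0.613% in the second, 13.2% in the third, and 11.9%, 3.58% and 2.74% in the last 3.

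Whether removal of CTCF altered the effect of doxycycline was tested as the change from I to ID minus that from U to D. For Ctcfl in the LCL line this difference was 1.70 (standard error 0.26, adjusted p = 6.54e-06), as mean levels of 400.0 in D and 1172 in ID show. In the CTCFL and CLC lines it was -0.52 and -0.24 (95% intervals -0.98 to -0.05 and -0.77 to 0.30, adjusted p = 0.107 and 0.534). In the CTCF line it was 1.13 (adjusted p = 7.11e-04), at levels under 173 in every library, and 0.99 (adjusted p = 0.0129) without CTCF U replicate 2. For Ctcf, the CLC line gave 0.49 (adjusted p = 0.00580), a call lost in 6 of 8 fits without 1 library, with the lowest value of 0.29 (adjusted p = 0.0950) without CLC I replicate 2, and CTCF, CTCFL and LCL gave 0.21, -0.18 and 0.15 without passing. These contrasts passed for 22.9% of genes in LCL, 11% in CTCFL, 20.4% in CLC and 8.01% in CTCF.

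Auxin alone moved Ctcfl in opposite directions in different lines. In the CTCF line, Ctcfl had 141 and 172 in U and 51.3, 52.3 and 53.65 in I, with 85.3, 107 and 128 in the libraries labelled D and 79.6, 66.9 and 89.3 in those labelled ID. All libraries of I lay below all others of that line. Against U, those labelled ID differed by -0.99 (standard error 0.20, adjusted p = 0.00113, and -0.85 with adjusted p = 0.0218 without CTCF U replicate 2), while those labelled D, at -0.56, did not pass (adjusted p = 0.0737). ID against I gave 0.57 (standard error 0.18, adjusted p = 0.0258).

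Ctcfl in the CLC line was higher in I than in U by 0.95 (standard error 0.15, adjusted p = 0.00139, with 27.2% of genes changed). The counts of both groups were close within each pair. That call was lost without CLC U replicate 1 (0.92, adjusted p = 0.0138) or replicate 2 (0.97, adjusted p = 0.0119). In the CTCFL and LCL lines the change was -0.06 and -0.16 (95% intervals -0.27 to 0.16 and -0.62 to 0.31). The difference of this change between lines was -1.50 for CTCF minus CTCFL (standard error 0.23, adjusted p = 1.02e-04), -1.40 for CTCF minus LCL (adjusted p = 2.74e-04), -2.50 for CTCF minus CLC (adjusted p = 2.75e-08), -1.001 for CTCFL minus CLC (adjusted p = 0.00323) and -1.10 for LCL minus CLC (adjusted p = 0.00769). Between CTCFL and LCL it was 0.10 (95% interval -0.39 to 0.59). Genome-wide 1.63%, 5.91%, 8.16%, 10.5%, 3.26% and 8.51% of genes passed in these 6 contrasts. The contrast of CTCFL minus CLC was lost without any of 3 single libraries, CLC U replicate 1 (-0.98, adjusted p = 0.0180), CLC U replicate 2 (-1.02, adjusted p = 0.0134) or CLC I replicate 2 (-0.99, adjusted p = 0.0135), and that of LCL minus CLC in 5 of 8 such fits, with values from -1.36 to -0.85. For Ctcf, none of the 6 differences in the change after auxin passed, and of those after doxycycline 1 of 6 did, CTCF minus CLC at -0.60 (adjusted p = 0.00377), which was lost in 7 of 9 fits without 1 library.

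The untreated lines already differed in both genes. Ctcf was lower in the CTCF and CTCFL lines than in LCL and CLC, with log2 differences from -0.86 to -0.73 (adjusted p at most 1.16e-08), and no library of the former pair of lines in any condition reached any of the latter pair. Ctcfl was higher in the CTCF and CTCFL lines than in LCL and CLC by 1.87 to 2.68 (adjusted p at most 4.14e-10). CTCF and CTCFL did not pass against each other for Ctcf or Ctcfl (-0.10 and -0.41, adjusted p = 0.411 and 0.0774), nor did LCL and CLC (0.03 and -0.41, adjusted p = 0.888 and 0.112). Large shares of all genes differed in the same contrasts, namely 48.3%, 50.5%, 53.9% and 55.1% across the pairs of lines, 16.0% between CTCF and CTCFL and 15.1% between LCL and CLC. Markers of differentiated lineages split along the same pairs of lines, taken over all conditions. They summed to between 3123 and 4026 in CTCF and CTCFL libraries and to between 786 and 1469.8 in those of LCL and CLC. The sums of pluripotent markers overlapped, at 97772 to 221105 against 215148 to 301128. Those of germ cell markers also overlapped, at 7633 to 29447 against 4549 to 9194. The part of these markers in the differences between lines was not tested. The column names of LCL and CLC in the expression table carry "2i" and those of CTCF and CTCFL do not, although the growth protocol gives both inhibitors for all clones. Line, clone, culture and any separate preparation of the 2 sets of libraries cannot be told apart.

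Ordered by mean level, the groups of Ctcf ran from CLC ID (10829) and CLC D (10121) through LCL U (8569) and CLC U (8389) down to CTCFL ID (3879) and CTCF D (3748). The libraries of LCL U overlapped those of CLC U, and from CTCFL U down to CTCF I, ranks 9 to 13, each group overlapped the next. For Ctcfl the first 6 places were held, without overlap between neighbors, by CTCFL D (8244), CTCFL ID (5514), CLC ID (2992), CLC D (1810.3), LCL ID (1172) and LCL D (400.0), and the last by LCL U (31.8) and LCL I (28.6), which overlapped.

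Per kilobase of exon (4.86 kb for Ctcf and 3.217 kb for Ctcfl), the level of Ctcfl was 2.71 times that of Ctcf in CTCFL D and 2.15 times in CTCFL ID. These lengths are those of all annotated exons, of which the transgenes hold only a part. In CLC D and ID the ratio of levels was 0.270 and 0.417, and in LCL D and ID it was 0.0875 and 0.2501. In all groups without a transgene for Ctcfl sequence or without doxycycline it lay between 0.00550 and 0.0623. Among the genes with a count above 0, Ctcf ranked above 94.8% to 98.1% in every group. Ctcfl ranked above 98.1% of them in CTCFL D and above 43.9% in LCL I.

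In the CLC line the rows of both genes gained with doxycycline. From I to ID the mean normalized count rose by 4379 for Ctcf and by 2911 for Ctcfl, a gain per kilobase of exon of 901 and 905. The divisor is all exon of each gene, of which the transgene holds only part of the coding sequence. These are therefore not gains per kilobase of transgene. From U to D the gains were 1731 and 1768, or 356 and 549.7 per kilobase, of which that of Ctcf did not pass the test. In the LCL line, whose transgene also holds sequence of both genes, Ctcfl gained 368 from U to D and 1143 from I to ID, while the mean of Ctcf changed by -1665 and -788 in the same contrasts.

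Some genes had profiles like those of the pair over the 38 libraries, after the mean of each line was subtracted. This is a description, since the libraries share lines, treatments and size factors. Nearest to Ctcf among 16480 genes were Zmym4 (Pearson r = 0.778), Dnajc13 (0.769), AI314180 (0.747), Ralgapb (0.738) and Cdc27 (0.732), a subunit of the anaphase promoting complex, and farthest were Tmem141 (-0.782), Pold4 (-0.768) and Hspb2 (-0.734). Among the nearest to Ctcfl were Prss50 (0.859), a testis protease, Lipg (0.849), an endothelial lipase, Rapgef4 (0.802) and St3gal1 (0.795), and farthest were the splicing factor gene Srsf6 (-0.816), Chml (-0.815) and Knop1 (-0.809). Prss50 had a mean normalized count of 90.8 in CTCFL U, 937 in D and 1321 in ID, against 22.8, 57.3 and 59.1 in CLC. Between Ctcf and Ctcfl r was 0.028.

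Of the neighbors on chromosome 2, Pck1 stood out. Pck1 encodes a key enzyme of glucose synthesis, and it is the nearest protein-coding gene on the start site side of Ctcfl, 33.5 kb away. In the CTCFL line it had at most 5.39 normalized counts in U and 6.99 in I, between 49.0 and 86.2 in D, and 77.5 and 119 in ID. The log2 fold changes on the value plus 1 were 4.93 in D and 5.38 in ID against U (standard errors 0.82 and 0.92, adjusted p = 7.47e-05 and 3.78e-05), and they lay between 3.48 and 6.10 under all alternatives. In the CTCF, LCL and CLC lines Pck1 did not exceed 7.73 in any library, and no FLAG region lay within 1 kb of its start in any group.

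Ctcflos, an antisense transcript whose annotation overlaps the 5′ part of Ctcfl, moved in the same libraries. It had 0 to 11.9 normalized counts in CTCFL U and 6.53 to 9.05 in I, against 81.9 to 139 in D and 93.5 and 114 in ID. The changes against U were 4.88 and 4.84 (standard errors 0.67 and 0.75, adjusted p = 7.71e-06 and 1.11e-05). In the CTCF, LCL and CLC lines it stayed at or below 9.69. Reads of Ctcfl and of its antisense partner are told apart only if the counting used strand, which is not given in the sources used here, and the part of this in the change of Ctcflos was not tested.

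**Figure D3:**
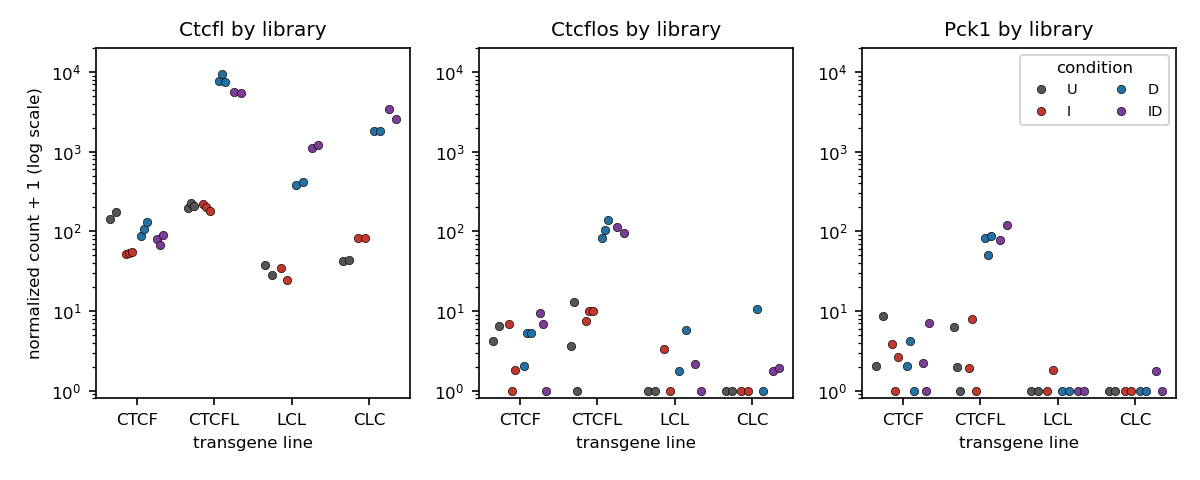
Normalized counts plus 1 (log axes) of Ctcfl, its antisense transcript Ctcflos and its neighbor Pck1 in each library, by line and condition. Ctcflos and Pck1 exceed 20 only in D and ID of the CTCFL line, while Ctcfl is also higher with doxycycline in LCL and CLC.

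Of the 5 protein-coding neighbors on either side of Ctcfl, 8 were tested in the CTCFL line. Against U, 1 was higher and 1 lower in D, and 3 were higher and 2 lower in ID. Of all genes, 24.9% and 45.3% were called in these contrasts. In the other lines 6 were tested. In D, 3 were higher in LCL and none changed in CTCF or CLC, against 11.3%, 4.70% and 1.62% of all genes. In I, 3 were higher in each of CTCF, LCL and CLC, and 1 was lower in CTCF. In I of CTCFL 2 were higher and 1 lower. Of all genes, 30.9%, 28.4%, 27.2% and 30.3% were called in I of CTCF, LCL, CLC and CTCFL. Rbm38, an RNA-binding protein gene 58.9 kb beyond the 3′ end, was higher in I than in U in all 4 lines by 0.54 to 0.92. Tfap2c, a transcription factor gene of early development, rose by 1.40 in LCL ID, where 37.9% of all genes changed, and fell by 0.47 in CTCFL ID. Zbp1, a sensor of nucleic acids, rose by 2.52 in I of the CTCF line (adjusted p = 5.84e-04) at levels under 56, and without CTCF U replicate 1 that call was lost.

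Of the neighbors of Ctcf, 8 were tested in the CTCFL line, with 2 higher and 1 lower in D and 3 higher and none lower in ID, against the same background of 24.9% and 45.3%. Carmil2, whose start lies under the FLAG region beyond the 3′ end of Ctcf, had 201 to 240 in CTCFL U and 113 to 142 in D, a fall by 0.78 (adjusted p = 0.00179), which was lost without CTCFL U replicate 1 or CTCFL D replicate 2. Hsd11b2, an enzyme that inactivates glucocorticoids, rose by 2.62 in CTCFL ID and by 1.34 in CTCF ID. The median log2 fold change of the neighbors in CTCFL ID was 0.52 for Ctcf and 0.58 for Ctcfl, against 0.08 over all genes tested, and in CTCFL D it was 0.03 and 0.00 against 0.00.

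The cohesin ring and its loaders and regulators act with CTCF in loop formation, and their list held 18 genes. In ID against U, 11 of 18 were lower and 3 higher in CTCFL, 12 and 2 in CTCF, 10 and 2 of 17 in LCL, and 3 and 1 of 17 in CLC, where 45.3%, 40%, 37.9% and 16.7% of all genes were called in either direction, with medians of -0.47, -0.60, -0.43 and -0.36 against 0.08, 0.06, 0.02 and 0.00 over all genes. The meiotic subunit gene Rec8 was the highest in all 4 lines, at 1.64, 1.13, 1.51 and 1.57. The loader Nipbl changed by -1.33 and -1.17 in CTCFL and CTCF, and the deacetylase Hdac8 by -1.35 and -1.26. In CTCF the subunit gene Stag1 was the lowest, at -1.38. The meiotic subunit genes Smc1b and Stag3 changed by -3.17 and -2.03 in LCL and by -1.56 and -0.99 in CLC, whereas Stag3 rose by 0.51 in CTCFL.

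With doxycycline alone, where 24.9% of all genes were called in CTCFL, 11.3% in LCL, 4.70% in CTCF and 1.62% in CLC, 5 of the cohesin list were higher and 1 lower in CTCFL, 4 were lower in LCL and 2 in CTCF, and in CLC no gene of the list passed with limma, at a median of -0.20 against -0.02 over all genes. Rad21, the subunit probed by ChIP-seq, changed by -0.40 and -0.23 in D of the CTCF and CTCFL lines and by -0.59 and -0.62 in ID. The calls in D were lost under 10 and 6 of 19 alternatives. With auxin alone 8, 11, 8 and 7 of the list were lower in CTCF, CTCFL, LCL and CLC, and 2 were higher in each, against 30.9%, 30.3%, 28.4% and 27.2% of all genes called. Of 18 other factors named as partners or relatives of CTCF, 8 were lower and 3 higher in CTCFL ID, 4 and 2 in CTCF ID, 9 and 3 in LCL ID, and 3 and 1 in CLC ID. These counts stand beside 45.3%, 40%, 37.9% and 16.7% of all genes called in those contrasts. Among them Taf3, a subunit of TFIID, changed by -1.89 and -1.67 in CTCFL ID and CTCF ID, and Adnp, a chromatin factor gene, by -1.73 in CTCFL ID (lost without CTCFL ID replicate 1) and -1.41 in CTCFL D (lost without the filter or any 1 of the U libraries).

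FLAG ChIP-seq recovers the transgenic proteins alone. At Ctcfl, 14 of 16 groups had at least 1 region in both replicates, and the 2 without were CLL D and LLC D. The strength of each peak is given as −log10 q for replicates 1 and 2, a measure that grows with depth, and how deeply these libraries were sequenced is unknown, since no read counts are listed. Lists held between 2189 and 55408 FLAG regions. Over all protein-coding genes, a region in both replicates lay within 10 kb of 67.0% after D and 60.2% after ID for CTCF, 58.6% and 58.4% for CTCFL, 61.9% and 67.7% for LCL, 23.3% and 48.3% for CLC, 4.87% and 39.7% for CLL, and 7.53% and 16.2% for LLC.

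The promoter of Ctcfl, whose sequence is given above with a match of 10 positions, was the strongest of these regions for CTCFL. Its −log10 q was 114 and 130 after D and 155 and 142 after ID, above the regions of nearly the whole list of each library (the 100.0th percentile after rounding). The chimeras that carry the zinc fingers of CTCFL had lower values there. CLC had 5.9 and 9.8 in D and 48.3 and 48.5 in ID, CLL had 33.9 and 55.5 in ID, and LLC had 5.1 and 9.1 in ID. In CLL D and LLC D the promoter was listed in replicate 2 alone, at 22.8 and 12.8.

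The transgenes with the zinc fingers of CTCF also gave promoter peaks, though not in each group. CTCF had 9.7 and 9.9 in D and no peak in either replicate of ID. LCL had 10.6 and 16.4 in D and 29.6 and 28.8 in ID. The values of CTCFL in D and ID, labelled 24 h, exceeded those of every other group in both replicates. The mock-treated CTCFL libraries, labelled 48 h as those of CLL and LLC are, had lower values, given below. Those values overlapped the values of CLL ID and CLC ID.

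Inside the gene the order was different. At 5.6 kb, where the best match held 9 positions, CTCF had 54.7 and 57.0 in D and 83.9 and 66.2 in ID, and LCL 8.0 and 16.3 in D and 27.1 and 43.3 in ID. CTCFL had no peak there in D and 7.0 in replicate 1 of ID only, and CLC 5.6 and 5.5 in ID. At 12 kb CTCF had 34.4 and 47.3 in D and 93.3 and 61.2 in ID, LCL 15.0 and 21.5 in D and 46.5 and 45.6 in ID, and CTCFL 3.9 and 4.5 in D and 16.6 and 11.5 in ID. At both positions the libraries of CTCF and of CTCFL did not overlap in D or in ID.

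The intron at 22 kb, with its row of 4 matches, was the most widely shared region, listed in both replicates of 13 of 16 groups. For CTCFL, D gave 82.6 and 98.3 and ID gave 139 and 114, while for CTCF the values were 21.7 and 25.6 (D) and 85.1 and 55.1 (ID). LCL ID had 69.0 and 49.6, CLC ID 47.5 and 72.5, and CLL ID 38.1 and 56.6. The replicates of LLC ID stood far apart, at 4.8 and 40.5. The downstream region at 29.9 kb, where all 14 positions matched, was listed in 10 groups, with the highest values in CTCF ID (109 and 74.3).

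**Figure D4:**
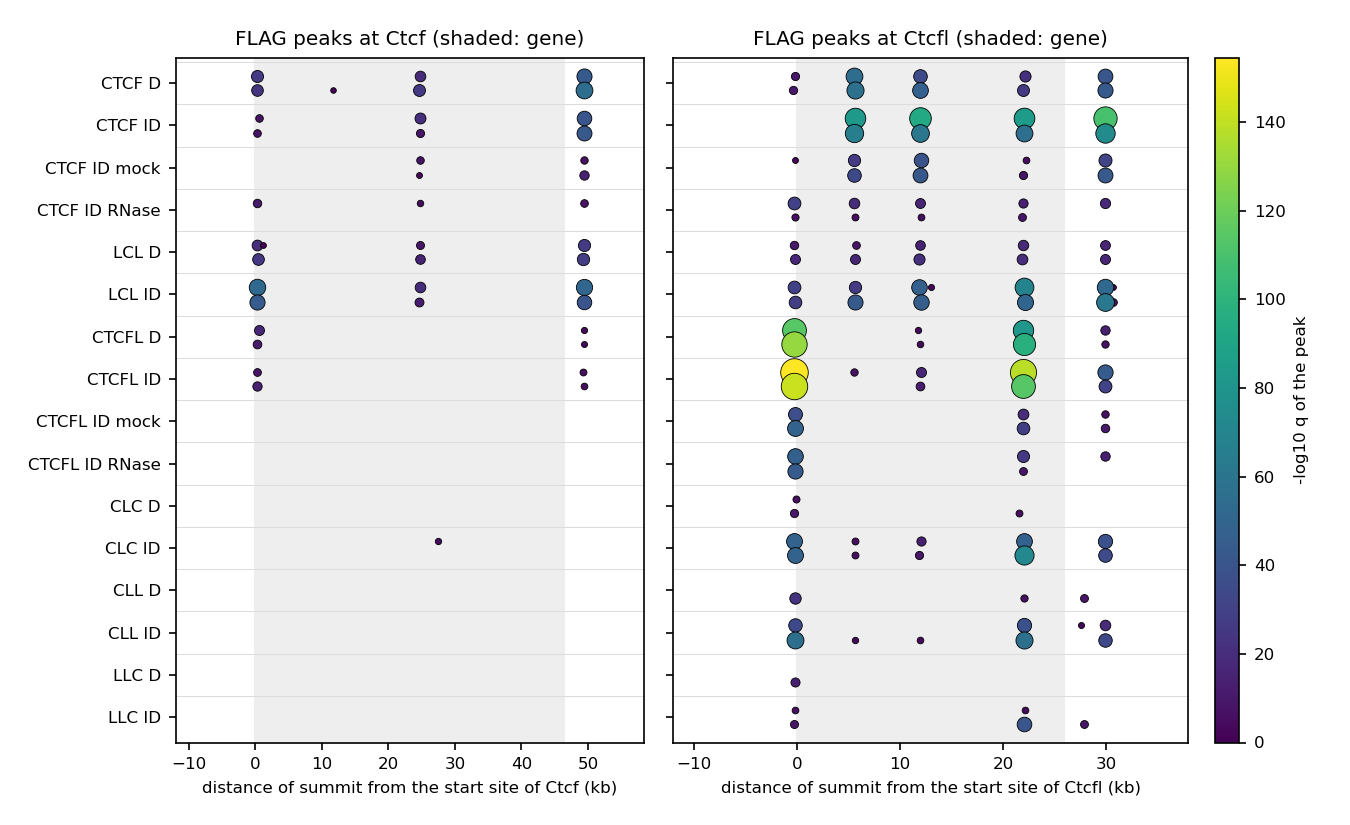
FLAG peaks at Ctcf (left) and Ctcfl (right) by distance of the summit from the gene's start site in kb, with a row for each transgene and condition, the upper point for replicate 1 and the lower for replicate 2, and color and size for −log10 q. Outside the mock and RNase rows, the peaks of CTCFL at the Ctcfl promoter and in the intron at 22 kb lie between 82.6 and 155. They are lower in the mock and RNase rows. The 5.6 kb and 12 kb positions are strongest for CTCF in D and ID without mock or RNase treatment.

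At Ctcf, 7 of 16 groups had a region in both replicates, and no group of CLC, CLL or LLC, no mock or RNase group of CTCFL and no RNase group of CTCF did. For CTCF after RNase treatment, replicate 1 listed 3 regions there and replicate 2 listed 0, against 2 and 2 after mock treatment. At the promoter, CTCF had 26.2 and 24.0 in D and 7.7 and 7.8 in ID, CTCFL 16.5 and 11.4 (D) and 8.2 and 13.8 (ID), and LCL 19.8 and 24.2 in D and 52.4 and 43.7 in ID. LCL ID held the highest values there. In the intron, only CTCF and LCL had peaks, between 9.0 and 25.4 in D and between 9.5 and 20.6 in ID. At the start of Carmil2, CTCF had between 40.2 and 54.8 and LCL between 26.8 and 51.2 over D and ID, against 3.2 to 5.5 in CTCFL. The percentile of the promoter peak within its own list was 70.4 and 72.8 for CTCF after D, 20.7 and 18.6 after ID, and 93.8 and 91.4 in LCL ID.

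RNase treatment of permeabilized cells before crosslinking was set beside mock treatment in ID of the CTCF and CTCFL lines. At the Ctcfl promoter, CTCFL had 36.4 and 48.4 after mock and 46.8 and 43.9 after RNase treatment, values that overlap. At 22 kb it had 19.9 and 28.8 after mock and 26.2 and 8.5 after RNase treatment. With CTCF, the 5.6 kb region had 27.0 and 34.2 after mock and 18.9 and 5.5 after RNase treatment, and the 12 kb region 39.4 and 41.7 against 16.1 and 5.2, both without overlap. The promoter was listed in replicate 1 alone after mock treatment (2.9) and in both replicates after RNase treatment (29.9 and 6.3). Over all genes, 47.4% had a region in both replicates in CTCF mock and 26.4% in CTCF RNase, and 20.1% and 11.6% in CTCFL mock and RNase. These shares need a peak in both replicates, so the shorter list limits them. The lists of replicate 2 after RNase treatment were short, and the source of this was not tested. In CTCF, replicates 1 and 2 listed 23919 and 25374 peaks after mock and 24896 and 8584 after RNase treatment, and in CTCFL 8918 and 14347 against 9204 and 2526, so that replicate 1 had no fewer peaks after RNase treatment in either line. With 2 libraries against 2, an exact two-sided permutation test cannot go below p = 0.333, and none was run.

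RAD21, the cohesin subunit, gave a region in both replicates at Ctcf in none of 8 groups and at Ctcfl in 1, LCL D. That region (chr2:173107438-173107693) lay under the FLAG region at 12 kb, with −log10 q of 1.98 and 1.75. The same place was listed in replicate 1 alone of CTCF D (4.72) and CTCFL D (2.04). Over all protein-coding genes, a RAD21 region lay within 10 kb of 11.2% after D and 1.63% after ID in the CTCF line, 0.611% and 0.322% in CTCFL, 6.72% and 0.313% in LCL, and 1.22% and 0.405% in CLC. RAD21 lists held between 163 and 22765 regions, so that an empty locus was the usual case.

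Some peaks in single replicates fell on coding exons that the transgenes also carry. Within a coding exon of Ctcf, over the stretch from 105663849 to 105664351, RAD21 was listed in both replicates of CTCF D (2.43 and 1.18, not overlapping) and in replicate 2 of CLC D (2.14), and FLAG in replicate 1 of CLC ID (3.94). Within a coding exon of Ctcfl, over the stretch from 173118375 to 173118693, RAD21 was listed in replicate 1 of CTCFL ID (1.36), in replicate 2 of LCL D (1.19) and in replicate 1 of LCL ID (1.74). Reads from the transgene copy and from the chromosomal exon cannot be told apart here.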

How the data were processed

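The authors aligned RNA-seq reads with STAR and deposited 1 table whose values act as signal, gene counts divided by a size factor per library (GRCm38). The submitters' processing notes name Trim Galore 0.4.4, Bowtie2, SAMtools 1.3, HTSeq and deepTools without roles. No column of the table was left unused, and whole reads were recovered in all libraries (100% of values of up to 500 reads, tolerance 0.1). For ChIP-seq the authors aligned with Bowtie2 (GRCm38), kept unique reads, removed duplicates, ran MACS on each replicate (q-value limit 0.05), and deposited the fold enrichment (a ratio over local background) and −log10 q of each peak. The control library is not given in the sources used here.

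Here log2(value + 1) was fitted with limma 3.58.1 (R 4.3.3, trend), 1 fit per line over its conditions and 1 over all 38 libraries for contrasts between lines. Genes with a mean under 10 were left out. Adjusted p are Benjamini-Hochberg over all genes tested, with a threshold of 0.01. "Rose", "fell", "higher" and "lower" in counts of genes mean past it. Alternatives were a pseudocount of 5, no filter, TMM rescaling, the compared groups alone, all libraries in 1 fit, a replicate block, edgeR 4.0.16 and DESeq2 1.42.0 (both on the recovered reads), and 1 library left out at a time. Scripts were tested on simulated data.

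Peaks of both replicates that overlapped by 1 bp were merged. Gene models came from the GRCm38 annotation, and sequences from the same build. Neighbors, overlapping genes, lists and genes of like profile were named by fixed rules (5 protein-coding neighbors a side, the 2 highest and 2 lowest past the threshold per list, the 5 highest and 3 lowest r), except that Pck1, Rbm38, Tfap2c, Zbp1, Hsd11b2, Carmil2, Ctcflos and Rad21 were singled out after their values were seen. The 2 genes and all lists were chosen with earlier results of these data known. IgG libraries were not used. One gene that the rule on like profiles names is not reported here.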

Additional observations from a re-analysis of the deposited data

Results flagged for a closer look

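Of 32 tested contrasts of the effect of a treatment between lines, or of doxycycline with and without auxin, 14 passed at an adjusted p under 0.01 (limma over all 38 libraries), and each is given as a log2 difference. The response of Ctcfl to auxin alone differed by -1.50 (CTCF minus CTCFL), -1.40 (CTCF minus LCL), -2.50 (CTCF minus CLC), -1.001 (CTCFL minus CLC) and -1.10 (LCL minus CLC). Its response to doxycycline differed by -5.86 (CTCF minus CTCFL), -4.19 (CTCF minus LCL), -5.96 (CTCF minus CLC), 1.68 (CTCFL minus LCL) and -1.77 (LCL minus CLC). The CTCF transgene holds no Ctcfl sequence, so the doxycycline contrasts of its line with the others were built into the constructs. The response of Ctcf to doxycycline differed by -0.60 (CTCF minus CLC). The response to doxycycline differed with and without auxin by 1.13 for Ctcfl in the CTCF line, 1.70 for Ctcfl in LCL and 0.49 for Ctcf in CLC, of which the last was lost in 6 of 8 fits without 1 library. Line, clone, culture and any separate preparation cannot be told apart in the differences between lines.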

How the results depend on the processing

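No change of Ctcf or Ctcfl that passed the threshold changed sign under the alternatives, while 10 differences that had not passed did so in 17 fits, none of which passed (limma), with values of at most 0.15 in size. Of the comparisons within lines 515 kept their side of the threshold, 14 newly passed and 31 no longer passed. Replicate numbers do not pair the samples, since the deviations of same-numbered libraries correlated above 0.1 in 3 of 15 pairs in CTCF and in 0 of 15, 12 and 12 in CTCFL, LCL and CLC. For Ctcf after D in the CTCF line, the change of -0.33 was not past the threshold without the filter (adjusted p = 0.0173), with the compared groups alone (0.0282), with all 38 libraries in 1 fit (0.0104), at -0.32 with edgeR (0.0104) or at -0.31 with the replicate block (0.0327), and ID passed at -0.21 with the groups alone and -0.24 with DESeq2. Ctcfl from I to ID in CTCF passed at 0.57 with all libraries in 1 fit. Ctcf in LCL passed with DESeq2 at -0.32 in D and -0.29 in ID. In CLC, Ctcf passed at -0.39 in I and 0.37 in ID with all libraries in 1 fit and at 0.27 in D and 0.37 in ID with the groups alone, while from I to ID 0.76 was lost without the filter (0.0135), with the groups alone (0.0597) and with the replicate block (0.0170), and Ctcfl in I, at 0.95, was lost with the groups alone (0.0201). Between LCL and CLC, the difference of Ctcfl after auxin was lost at -1.02 with a pseudocount of 5 and at -1.10 without the filter or with the replicate block, and the CLC interaction of Ctcf, 0.49, without the filter. The replicate block changed no other call of these genes. The cause of these changes was not tested.

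With 1 library left out, where a lone sample is assumed to vary like the other groups, Ctcf ranged from -0.35 to -0.29 (CTCF D), -0.44 to -0.34 (CTCFL ID), -0.37 to -0.28 (CTCFL from I to ID), -0.43 to -0.18 (LCL D), -0.40 to -0.15 (LCL ID), -0.59 to -0.20 (CLC I), 0.29 to 0.44 (CLC ID) and 0.56 to 0.95 (CLC from I to ID), and Ctcfl from -1.13 to -0.85 (CTCF ID) and 0.92 to 0.97 (CLC I). Differences between lines ranged, for Ctcf after auxin, from 0.10 to 0.49 (CTCF minus CLC) and 0.14 to 0.53 (CTCFL minus CLC), and after doxycycline from -0.62 to -0.56 (CTCF minus CLC), -0.47 to -0.36 (CTCFL minus CLC) and -0.70 to -0.45 (LCL minus CLC). For Ctcfl after auxin they ranged from -1.07 to -0.92 (CTCFL minus CLC) and -1.36 to -0.85 (LCL minus CLC). The interaction ranged from 0.98 to 1.27 for Ctcfl in CTCF and from 0.29 to 0.68 for Ctcf in CLC.

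By single replicates, FLAG regions at Ctcf numbered 5 and 5 instead of 3, RAD21 regions at Ctcf 2 and 2 instead of 0, and those at Ctcfl 6 and 3 instead of 1. The RAD21 region at Ctcfl was lost, leaving 0, at a −log10 q of at least 5 or an overlap of at least 50%. The latter also took the FLAG regions of CTCF D from 3 to 0 at Ctcf, where those of CTCFL ID went from 2 to 1 and 6 groups in place of 7 then had a region, and from 5 to 2 at Ctcfl, and at Ctcfl those of LCL D from 5 to 3 and of CTCF RNase from 4 to 1. In CTCF D 785 genes passed, against 488 without the filter, 427 with the groups alone, 175 with the block and 1649 with DESeq2. In LCL D it was 1733 against 1106 without the filter, and in CLC I 4172 against 2441 with the groups alone. In CLC D, 248 compared with 70, 3541, 25 and 1041 under the same 4 and 1663 with all libraries in 1 fit, in CLC ID 2563 with 1623 (block) and 4336 (1 fit), and from I to ID in CLC 842 with 491, 3, 283, 1728 and 2479. For neighbor, list and overlapping genes the same alternatives were added after seeing the data, and of 288 changes past the threshold 180 passed under all alternatives, 108 were lost under some and 0 changed sign. TMM rescaling shifted values by at most 0.0567 (log2).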

Other observations

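Hi-C domain lists at both loci, 1 list per condition and method with no replicates, were read as positions alone and compared by no test. A gene was placed in a domain by its start site. In the lists of the crane method Ctcf lay inside a domain of 720 to 880 kb in 12 of 12 conditions and Ctcfl in none of 12. In those of the hicratio method the start site of Ctcf lay in a domain in 12 of 12 conditions and that of Ctcfl in 9 of 12. In I of the CTCF and CTCFL lines and in ID of CLC, the domain ended at chr8:105680000, inside Ctcf. The domain around Ctcfl was 680 kb long (chr2:172840001-173520000) in U and D of the CTCF and CTCFL lines and in D of CLC and LCL. It was 480 kb long (chr2:173080001-173560000) in I of the CTCF and CTCFL lines and in ID of CLC. Ctcfl lay in no domain in ID of the CTCF, CTCFL and LCL lines. Domains are called in bins, so that edges are known only to the bin size.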
